A study of Mus musculus with 4 samples.

Results

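Gata1, Klf1, Zfpm1, Tal1, Gfi1b, Hbb-bt, Hba-a1, Alas2, Pf4 and Itga2b, 10 genes of the erythroid and megakaryocyte lineages, were taken by name from the 23756 genes of the count table. Their RNA was compared in 2 libraries of 32Dcl3-Abl1ko cells that grew without IL-3 (Abl1ko/IL3-) and 2 of 32Dcl3-Abl1ko cells kept in IL-3 (Abl1ko/IL3+). 32Dcl3 is a murine bone marrow line that normally needs the cytokine IL-3, and in both groups Abl1 was targeted by CRISPR/Cas9 from a lentiviral vector followed by puromycin selection. Cells without IL-3 are those that kept growing through a gradual withdrawal of the cytokine. The comparison is therefore between a selected growth factor-independent state and edited cells kept in the factor, not between acute starvation and feeding. The methods describe single clones, and the labels do not tie a library to a clone or a guide. Whether the libraries come from the same edited clone is therefore not known.

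GATA1 is the zinc finger factor that drives erythroid, megakaryocyte, mast cell and eosinophil genes, and it works with the cofactor FOG1, encoded by Zfpm1. TAL1 is a bHLH factor that binds DNA beside GATA1 in a complex with LMO2 and LDB1, GFI1B is a repressor needed for red cells and platelets, and KLF1 is the erythroid factor that binds CACCC elements of globin genes. Their textbook products include the adult globin chains (Hba-a1, Hbb-bt), the erythroid form of the first enzyme of heme synthesis (Alas2), platelet factor 4 (Pf4) and the platelet integrin subunit CD41 (Itga2b). 32D cells are best known for granulocytic differentiation, so transcripts of these lineages are not the usual readout of the line.

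Library totals ranged from 48953174 to 60382588 counts, and levels are given as normalized CPM, library-scaled counts after edgeR's TMM step. The targeted gene, Abl1, had 20.5 and 40.9 CPM with IL-3 and 32.3 and 38.9 CPM without it. The fitted log2 fold change was 0.21 (adjusted p = 0.980 in edgeR), and since every library carries the edit, the RNA level does not check it. The labels call the cells pre-B cells, but of 15 pre-B markers 6 were not analysed here, and among the others Rag1 had at most 4 counts and Vpreb2 at most 8 counts in any library. Cd79b was counted in every library (11.2 to 16.2 CPM), and Ighm reached 60.1 CPM in IL3+ replicate 1 and 2.34 to 3.36 CPM elsewhere. The 12 granulocyte genes summed to 2274.2 to 6381.5 CPM and the 9 pre-B genes to 22.7 to 79.7 CPM. The IL3+ libraries were less alike than the IL3- libraries: the median tested gene differed 1.72-fold between the IL3+ replicates and 1.29-fold between the IL3- replicates.

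The clearest group difference among the 10 genes was a lower level of Gata1 and Gfi1b without IL-3. Gata1 (chrX:7959260-7978071, minus strand, GRCm38 as in the files) had 215 and 366 CPM in the IL3+ libraries and 168 and 151 CPM in the IL3- libraries. Gfi1b (chr2:28609450-28621982, minus strand) had 193 and 233 CPM with IL-3, and 137 and 112 CPM without it. For both genes the 2 groups did not overlap, and the lowest IL3+ library was above the highest IL3- library 1.28-fold for Gata1 and 1.41-fold for Gfi1b. The means were 290.4 ± 107 against 159.6 ± 12.6 CPM for Gata1 and 213 ± 28.2 against 124 ± 17.7 CPM for Gfi1b (SD, n = 2 libraries per group). Neither difference passed the test: the log2 fold change of Gata1 was -0.86 (standard error 0.39, 95% interval -1.86 to 0.14, adjusted p = 0.854) and that of Gfi1b was -0.78 (standard error 0.32, 95% interval -1.61 to 0.052, adjusted p = 0.850; edgeR's quasi-likelihood F test, Benjamini-Hochberg adjusted). Both stayed negative in each of 14 alternative fits, between -1.18 and -0.43 for Gata1 and between -0.93 and -0.63 for Gfi1b. The value of Gata1 was nearest 0 in the fit without IL3+ replicate 2. With no overlap between the groups, the sign could hardly turn in refits of the same libraries, so it adds no support. Across all 16535 genes tested, both IL3- libraries lay below both IL3+ libraries for 17.9% of genes, against 2 of the 9 members tested, so the count itself does not set the members apart. Marker lists of other cells differed in their own ways. The 7 eosinophil genes summed to 3116.2 and 3655.6 CPM with IL-3 and 1675.5 and 1162.8 CPM without it, with Il5ra at 0 counts in 3 libraries, but of the 6 tested only 2 (Epx and Ear6) had both IL3- libraries below both IL3+ libraries. The 14 mast cell and basophil genes summed to 1629.7 and 530.8 CPM against 627.1 and 587.3 CPM, which overlap, with Kit at 4 counts or fewer in every library. Of 12 granulocyte genes, 5 were higher and 1 (Mpo) lower without IL-3 at an unadjusted p under 0.05, and none passed the adjusted threshold in edgeR. Over all 16535 genes tested, 423 were higher and 555 lower at that unadjusted threshold. S100a8, a calcium-binding protein gene of neutrophils, had 1.15 and 0.386 CPM with IL-3 and 71.2 and 123 CPM without it (adjusted p = 0.532 in edgeR). The part of these cell types in the Gata1 and Gfi1b values was not tested. In bulk RNA, fewer cells of a type and less RNA per cell cannot be told apart.

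**Figure D1:**
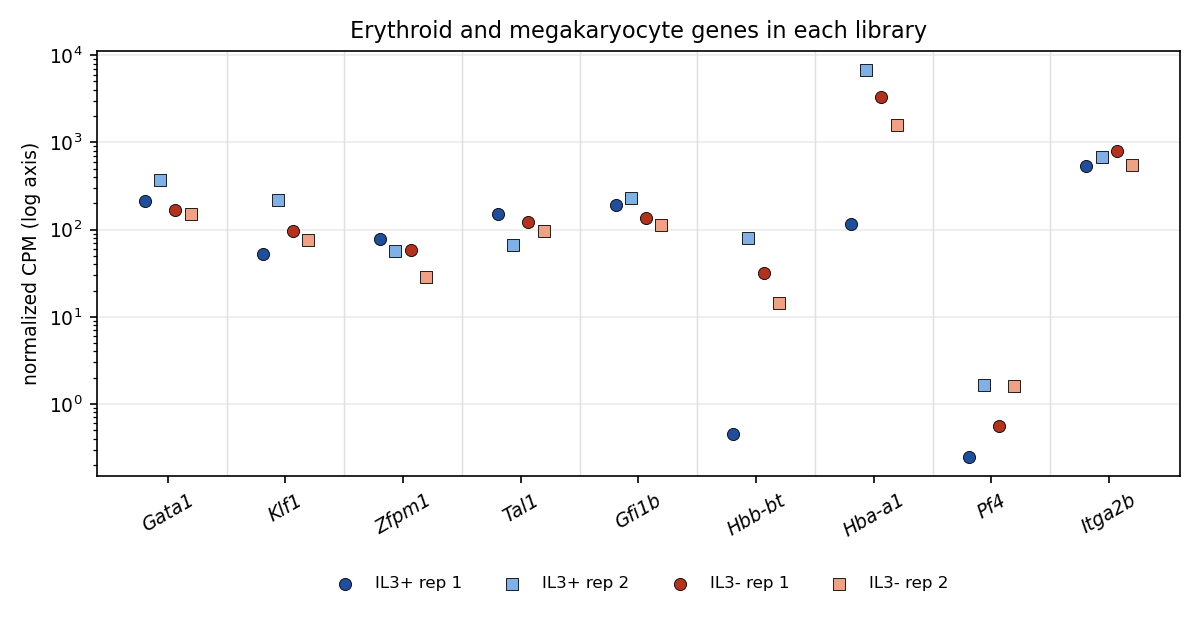
Normalized CPM (log axis) of 9 of the 10 genes in each of the 4 libraries, blue for Abl1ko/IL3+ and red for Abl1ko/IL3-, circles for replicate 1 and squares for replicate 2. Alas2, with 0 to 11 counts, is left out. Both red points lie below both blue points for Gata1 and Gfi1b, while for Hba-a1 and Hbb-bt the 2 blue points lie on either side of the red ones.

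The promoters of Gata1 and Gfi1b are shown because these are the members that were lower in both IL3- libraries. The stretches end at the base before the RefSeq start site (build GRCm38.p6, minus strand for both). Capitals mark matches on either strand to a GATA element (GATAA or GATAG with an A or T before it), a CACCC-type element (CCNCNCCC) or CCAAT.
Gata1, chrX:7967911-7968040: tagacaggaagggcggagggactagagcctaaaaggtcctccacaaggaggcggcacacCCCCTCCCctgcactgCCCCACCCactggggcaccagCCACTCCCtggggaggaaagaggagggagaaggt
Gfi1b, chr2:28621983-28622112: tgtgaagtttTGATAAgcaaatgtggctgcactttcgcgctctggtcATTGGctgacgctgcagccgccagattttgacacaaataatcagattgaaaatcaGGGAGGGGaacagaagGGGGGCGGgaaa
Gata1 had 3 CACCC-type matches and no GATA match in the 250 bases upstream, and Gfi1b had 1 GATA match, 2 CACCC-type matches and 1 CCAAT. Over 32851 mouse promoters of that length, 26.5% held a GATA match, 45.9% a CACCC-type match and 33.8% CCAAT. No binding was measured here, and a match is only a description of the letters.

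The other factors did not separate the groups. Zfpm1 (chr8:122282141-122337251, plus strand) had 77.5 and 56.8 CPM with IL-3 and 58.9 and 28.8 CPM without it, a log2 fold change of -0.61 (95% interval -1.80 to 0.58, adjusted p = 0.909 in the same edgeR test). The groups overlapped by a narrow margin, and IL3- replicate 2 was the lowest library. Tal1 (chr4:115056426-115071755, plus strand) had 151 and 67.1 CPM with IL-3, and 123 and 95.5 CPM without it, so that both IL3- libraries fell inside the IL3+ range and the fitted change was 0.0037 on the log2 scale (95% interval -1.24 to 1.25). Klf1 (chr8:84901928-84905291, plus strand) had 51.9 and 217 CPM with IL-3, and 96.8 and 75.1 CPM without it. Klf1 thus differed 4.19-fold between the IL3+ replicates and 1.29-fold between the IL3- replicates, and its log2 fold change of -0.65 (95% interval -2.47 to 1.17, adjusted p = 0.942 in edgeR) became 0.73 without IL3+ replicate 2 and -1.32 without IL3+ replicate 1. Per length, Gata1 and Gfi1b were at similar levels, with 57.2 to 120 FPKM and 56.5 to 102 FPKM. Klf1 had 32.7 to 114 FPKM, Tal1 12.3 to 33.2 FPKM and Zfpm1 7.59 to 21.3 FPKM. All 5 factor genes were therefore well above the counting floor in every library.

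Of the adult globin members, Hba-a1 had the highest FPKM of the 10 genes in each library and Hbb-bt the widest spread among those tested. Hba-a1, the adult alpha chain (chr11:32283511-32284465, plus strand), had 117 and 6745 CPM in the IL3+ libraries and 3316 and 1575 CPM in the IL3- libraries. IL3+ replicate 2 was highest, IL3+ replicate 1 was lowest, and both IL3- libraries lay between them. In deposited FPKM, Hba-a1 reached 6657 in IL3+ replicate 2, where it ranked number 5 of all genes, and 139 in IL3+ replicate 1, where it ranked number 363. It ranked number 17 and number 41 in the IL3- libraries. Hbb-bt, an adult beta chain (chr7:103812524-103813996, minus strand), followed the same order at lower levels, with 0.450 and 80.0 CPM with IL-3, and 31.8 and 14.3 CPM without it. Between the IL3+ replicates Hba-a1 differed 57.5-fold and Hbb-bt 178-fold, larger than 99.4% and 99.8% of all tested genes. Between the IL3- replicates the differences were 2.10-fold and 2.22-fold. Their log2 fold changes were -0.49 for Hba-a1 (95% interval -4.56 to 3.58, adjusted p = 0.989) and -0.81 for Hbb-bt (95% interval -5.55 to 3.94, adjusted p = 0.980, both in edgeR). The sign of these values rests on IL3+ replicate 2, and without it they became 4.38 for Hba-a1 and 5.67 for Hbb-bt. On mean log2(FPKM + 1), which gives the low library equal weight, they were 1.38 and 1.21. No direction between the groups can be given for the globin genes.

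Klf1 and the globins were highest in IL3+ replicate 2 and lowest in IL3+ replicate 1, with IL3- replicate 1 above IL3- replicate 2. Pf4 had the same highest and lowest library, but its IL3- libraries stood the other way round. Of the 9 members tested, 4 (Klf1, Hbb-bt, Hba-a1 and Pf4) were highest in IL3+ replicate 2 and lowest in IL3+ replicate 1, an order found for 14.2% of all genes tested. Tal1 showed the opposite order, which 13.9% of all genes tested had. The remaining 4 were Gata1 and Gfi1b, with separate groups, and Zfpm1 and Itga2b, with interleaved libraries (34.7% of all genes). Together, 5 of the 9 had both IL3- libraries between the IL3+ libraries, against 28% of all genes, and 0 had both above, against 19.4% of all genes. This order was noticed after the values were seen and is given as a description.

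Promoter stretches of Klf1, of the alpha-globin gene Hba-a2 and of the beta-globin gene Hbb-bs are shown because the globins and Klf1 shared the order of libraries. Capitals have the meaning given for Gata1 and Gfi1b. Each stretch ends where the nearest GENCODE exon begins, so that no transcribed base is printed. Klf1 and Hba-a2 are on the plus strand and Hbb-bs on the minus strand.
Klf1, chr8:84901798-84901927: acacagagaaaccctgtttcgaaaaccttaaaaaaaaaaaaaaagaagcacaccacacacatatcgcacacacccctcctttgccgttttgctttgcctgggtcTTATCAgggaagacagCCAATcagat
Hba-a2, chr11:32296359-32296488: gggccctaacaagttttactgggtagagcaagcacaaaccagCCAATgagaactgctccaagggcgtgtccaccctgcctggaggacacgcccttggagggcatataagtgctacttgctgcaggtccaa
Hbb-bs, chr7:103827929-103828011: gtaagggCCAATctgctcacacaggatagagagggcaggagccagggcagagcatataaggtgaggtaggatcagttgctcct
Klf1 held 1 GATA match, written TTATCA on this strand, beside 1 CCAAT. The motif search reached further upstream than the printed globin stretches, and positions are counted from the RefSeq start. Beyond its stretch, Hbb-bs had 1 CACCC-type match, at -93, and 1 GATA match, at -210. Hba-a2 had 1 GATA match, at -186, and no CACCC-type match. Among the members, Hbb-bt had 1 CACCC-type match, at -107, and no GATA match. Hba-a1 had 1 GATA match, at -183, and no CACCC-type match. Hba-a1 and Hba-a2 were identical at 107 of 113 aligned positions over the 110 bases upstream of their RefSeq starts, and Hbb-bt and Hbb-bs at 85 of 114.

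Reads of the adult globins cannot be assigned with certainty, since the coding sequences of Hba-a1 and Hba-a2 were identical at 428 of 429 bases and those of Hbb-bt and Hbb-bs at 443 of 444. The sums over each pair of paralogs were therefore also compared. Hba-a1 and Hba-a2 together took 12727 and 593752 counts in the IL3+ libraries against 230528 and 143439 in the IL3- libraries. In IL3+ replicate 2 they made up 0.983% of the library (95% Wilson interval 0.981 to 0.986%), against 0.0213% in IL3+ replicate 1 (0.0210 to 0.0217%). The intervals given for these shares cover counting error only. They take each count as 1 independent read, which was not tested, so they may be too narrow. The IL3- libraries held 0.471% (0.469 to 0.473%) and 0.259% (0.258 to 0.261%). Hbb-bt and Hbb-bs together took 118 and 7118 counts in the IL3+ libraries against 2450 and 1258 in the IL3- libraries. Hba-a1 took between 59.4 and 68.8% of the alpha-globin counts in the 4 libraries. The summed genes gave log2 fold changes of -0.61 for alpha and -0.87 for beta globin, again within the error (adjusted p = 0.983 and 0.976 in edgeR).

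The alpha and beta chains were far from equal. Summed over the paralogs, alpha globin had 254.5, 11674, 5413 and 3038 FPKM in IL3+ replicates 1 and 2 and IL3- replicates 1 and 2, and beta globin 2.31, 144, 60.2 and 27.7 FPKM. The ratio of alpha to beta was 110.4, 80.9, 89.9 and 109.7 in the same order. The ratio thus varied little beside the alpha level itself. Embryonic globins were scarce: Hbb-y, an embryonic beta chain, had 0 to 11 counts, and Hba-x, an embryonic alpha chain, was counted 0 and 118 times in the IL3+ libraries and 7 and 11 times in the IL3- libraries.

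**Figure D2:**
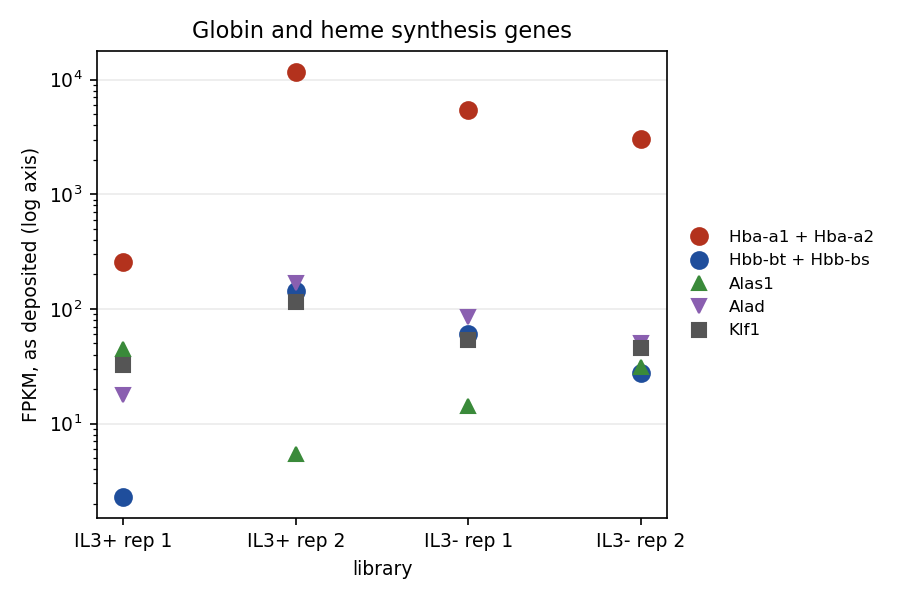
FPKM as deposited (log axis) of the summed adult alpha (Hba-a1 + Hba-a2) and beta (Hbb-bt + Hbb-bs) globin genes, Alas1, Alad and Klf1 in each library. Alpha globin is the highest in each library, beta globin follows it from 2.31 to 144 FPKM, and Alas1 runs the other way, from 44.3 FPKM in IL3+ replicate 1 to 5.38 FPKM in IL3+ replicate 2.

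Alas2, the erythroid 5-aminolevulinate synthase (chrX:150547375-150570638, plus strand), was near the counting floor of 3 counts in every library. Its counts were 0 and 8 in the IL3+ libraries and 11 and 4 in the IL3- libraries, and it did not pass the expression filter. The 0 in IL3+ replicate 1 sets no firm upper level. The floor of 3 counts, 0.0503 CPM of that library's total, is below the 4 counts of Rag1 there. Hbb-y had the same counts as Alas2 in every library, so such low counts may rise in steps. Whether 1 count stands for 1 read was not tested. Alas2 shares 311 exonic bases with Apex2, a gene on the opposite strand, and the sources used here do not say whether counting used strand, so even these counts are uncertain. The housekeeping form, Alas1, had 284 and 41.5 CPM with IL-3, and 104 and 208 CPM without it. In FPKM, Alas1 was at 5.38 to 44.3 where Alas2 was at 0 to 0.0699. Alpha-globin transcripts were thus abundant in libraries where the erythroid heme enzyme was barely counted. Beta globin (Hbb-bt and Hbb-bs summed) was as low as 2.31 FPKM in IL3+ replicate 1, where Alas2 had 0 counts. Alas1 shares 465 exonic bases with an antisense gene.

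Pf4, the platelet chemokine (chr5:90772435-90773383, plus strand), was low, at 16 and 89 counts in the IL3+ libraries and 27 and 94 in the IL3- libraries. The corresponding levels were 0.248 and 1.64 CPM, and 0.564 and 1.62 CPM. The replicates numbered 2 were alike in both groups and above the replicates numbered 1, so the log2 fold change of 0.22 (95% interval -2.64 to 3.07, adjusted p = 0.994 in edgeR) was well inside the spread. Itga2b, the CD41 subunit (chr11:102453297-102470122, minus strand), was high and steady by contrast. It had 535 and 677 CPM with IL-3, and 792 and 544 CPM without it, and 92.2 to 124 FPKM. Its highest library was 1.48 times its lowest, the smallest range of the 9 members tested, and its log2 fold change was 0.14 (95% interval -0.82 to 1.10, adjusted p = 0.984 in edgeR).

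**Figure D3:**
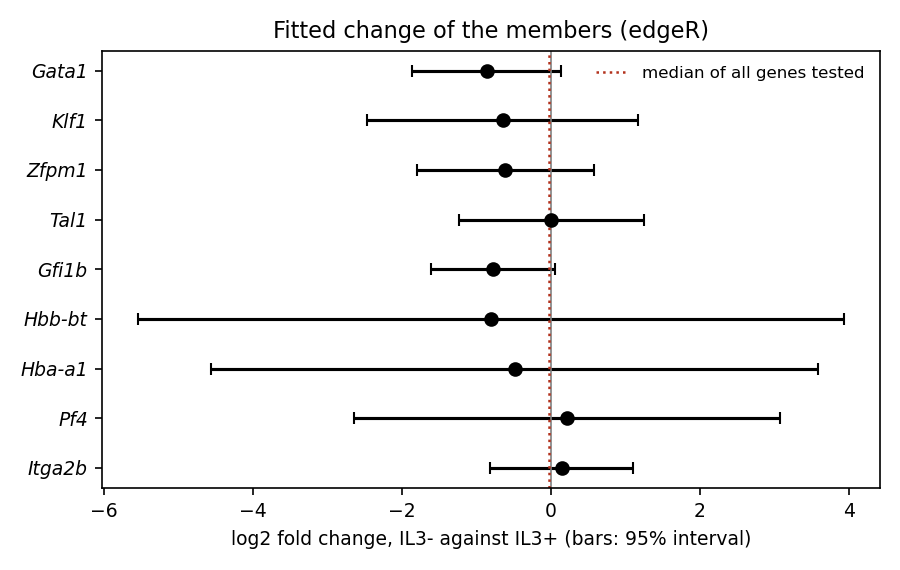
Log2 fold change of Abl1ko/IL3- against Abl1ko/IL3+ for the 9 members tested, from edgeR, with 95% intervals (bars) and the median of all genes tested (dotted line, -0.027). Every interval includes 0, narrowly for Gata1 and Gfi1b and by a wide margin for Hbb-bt and Hba-a1.

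Over the 9 members, 6 were lower and 3 higher without IL-3 in the fitted values, with a median log2 fold change of -0.61 against -0.027 for all genes tested. None had an adjusted p-value under 0.05, as for 0% of all genes (0 of 16535, lowest adjusted p = 0.335 in edgeR), and none had an unadjusted one, which 5.91% of all genes had (3.36% with a lower level without IL-3). DESeq2's Wald test, which called 271 genes, called 0 of the 9. The median was 0.32 without IL3+ replicate 2, so its sign depends on that library.

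Partner genes of these factors were read from the same edgeR fit. Of 24 partner factors tested, 0 passed the adjusted threshold in either direction, 1 had an unadjusted p-value under 0.05, and the median log2 fold change was -0.32. That gene was Gfi1, the myeloid paralog of Gfi1b, with 10.2 and 6.25 CPM with IL-3, and 1.67 and 1.90 CPM without it (log2 fold change -2.20, adjusted p = 0.727 in edgeR). Both Gfi1 paralogs thus had their lower values in the IL3- libraries. Gfi1 shares 101 exonic bases with a transcript on the opposite strand. Gata2, the GATA factor of stem cells and mast cells, had 221 and 34.7 CPM with IL-3 and 23.7 and 133 CPM without it. Gata2 was high in 1 library of each group, and its order of libraries was unlike that of Gata1. Lmo2, the bridging protein of the TAL1 complex, had 12.1 and 114 CPM with IL-3, and 72.8 and 28.1 CPM without it, in the order of the globins. Ldb1, which binds LMO2, had 181 and 233 CPM with IL-3, and 112 and 179 CPM without it. Nfe2, a factor of platelet formation and globin expression, had 252 and 700.2 CPM with IL-3, and 446 and 417 CPM without it. Spi1, encoding the myeloid factor PU.1 that opposes GATA1, had 118 and 132 CPM with IL-3 and 78.6 and 113 CPM without it, and both IL3- libraries lay below both IL3+ libraries by a small margin. Runx1 (83.2 to 166 CPM), Fli1 (59.5 to 107 CPM), Lyl1 (135 to 204 CPM) and Cbfa2t3 (135 to 197 CPM) did not separate the groups. Ldb1, Runx1 and Cbfa2t3 share 177, 106 and 295 exonic bases with genes on the opposite strand.

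Among 24 globin and heme genes tested, 0 passed the adjusted threshold in edgeR in either direction and the median log2 fold change was -0.32. The order of the globins, highest in IL3+ replicate 2 and lowest in IL3+ replicate 1, was found in 6 of the 24. It was found in 14.2% of all genes tested. The globin genes Hba-a2, Hbb-bs and Hba-x are themselves among the 6, so the count does not show that order for heme genes apart from globins. Alad, which follows ALAS in heme synthesis, was also 1 of the 6. It had 34.4 and 395 CPM with IL-3, and 185 and 102 CPM without it. Glrx5, an iron-sulfur cluster protein, was another, with 64.3 and 331 CPM against 248 and 154 CPM. An unadjusted p-value under 0.05 in edgeR, which 5.91% of all genes tested had, was found for Steap3 alone in the list. Steap3 is the ferrireductase that reduces iron taken up with transferrin. It had 42.6 and 49.2 CPM with IL-3, and 0.836 and 2.07 CPM without it. The lowest IL3+ library was 20.6 times the highest IL3- library, the replicates of each group were close beside that gap, and the log2 fold change was -4.98 (95% interval -6.57 to -3.38, adjusted p = 0.532 in edgeR). Tfrc, the transferrin receptor, showed no such gap, at 194 and 222 CPM in the IL3+ libraries and 290.0 and 258 CPM in the IL3- libraries, where both values were the higher ones.

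Of 23 red cell surface and enzyme genes tested, 10 were also highest in IL3+ replicate 2 and lowest in IL3+ replicate 1. That order was found in 14.2% of all genes tested. The 10 include genes that varied little, such as Bpgm, with 18.8 and 26.0 CPM with IL-3, and 22.4 and 19.0 CPM without it. Add2, a membrane skeleton adducin, had 0.310 and 38.6 CPM with IL-3, and 8.88 and 4.26 CPM without it. Add2 shares 356 exonic bases with an antisense gene. Rhag, the Rh-associated glycoprotein, was counted 0 and 1929 times in the IL3+ libraries and 980 and 1213 times in the IL3- libraries. Rhag was thus undetected in IL3+ replicate 1 alone, and present in the other library grown in IL-3. Epor, the erythropoietin receptor, had 14.01 and 39.1 CPM with IL-3 and 15.7 and 16.4 CPM without it. No gene of this list passed the adjusted threshold in edgeR in either direction.

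**Figure D4:**
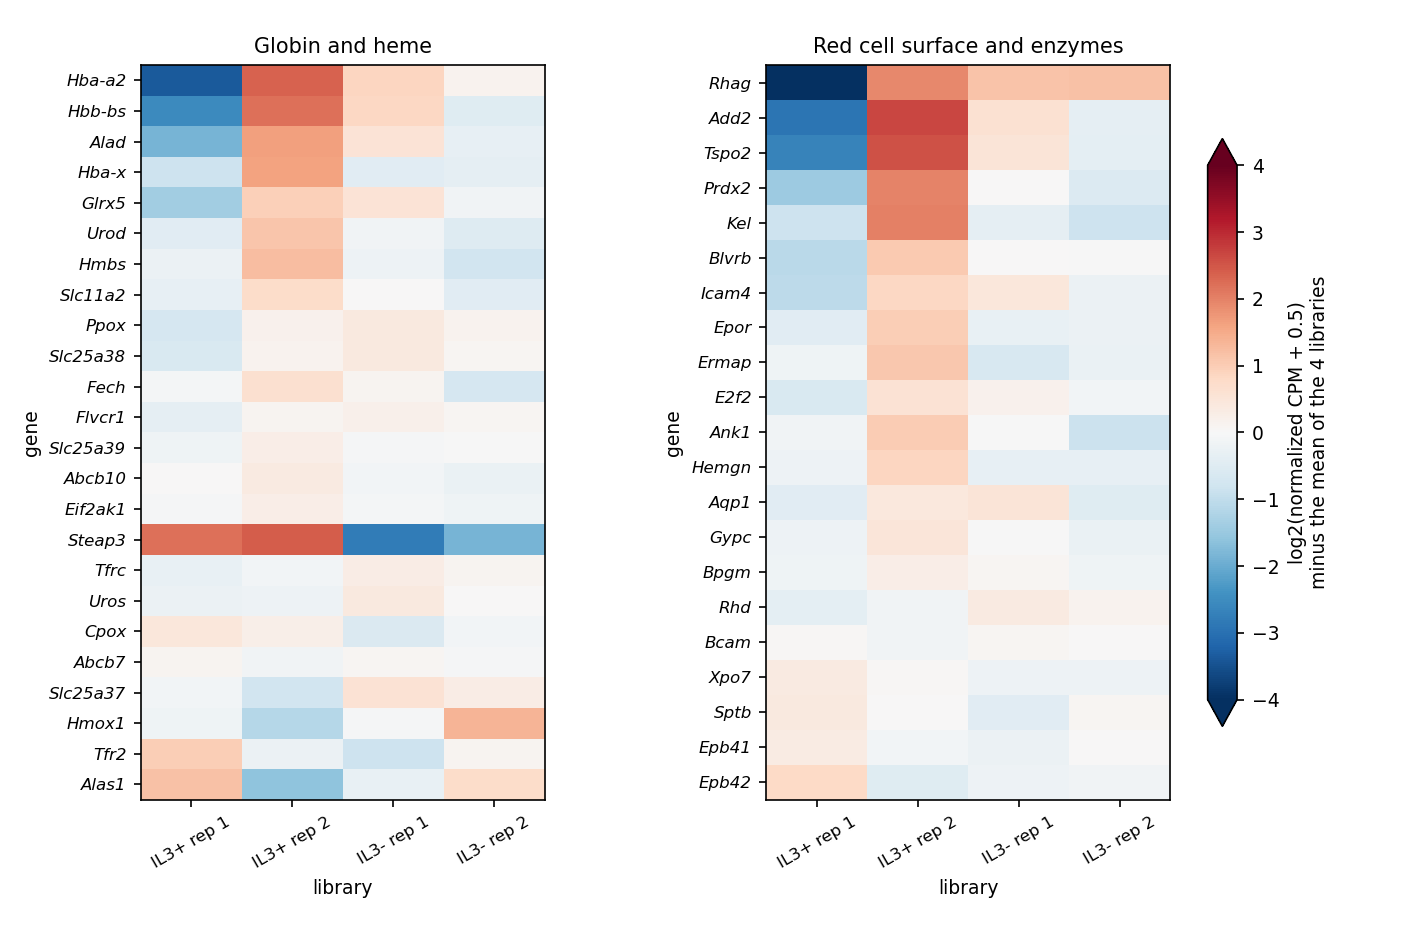
Colour gives log2(normalized CPM + 0.5) of tested genes in each library, less its mean over the 4 libraries, for the globin and heme list (left) and the red cell surface and enzyme list (right). Rows are ordered by the difference between the IL3+ replicates. The upper rows of both panels are blue in IL3+ replicate 1 and red in IL3+ replicate 2, with the IL3- libraries near the middle, and Steap3 is the row that differs most between the groups.

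Platelet genes did not follow Itga2b as a group. Of 22 tested, 0 passed the adjusted threshold in edgeR in either direction, and the median log2 fold change was -0.068. Itgb3 encodes the integrin partner with which CD41 forms the fibrinogen receptor. It had 291 and 6.33 CPM with IL-3, and 182 and 213 CPM without it, a difference of 45.9-fold between the IL3+ replicates, where Itga2b differed 1.27-fold. Itgb3 thus had its lowest value in the library where the globins and Klf1 were highest. The log2 fold change of Itgb3 was 0.41 (95% interval -3.38 to 4.203, adjusted p = 0.990 in edgeR). Gp6, the collagen receptor, was also lowest in IL3+ replicate 2, with 87.9 and 1.99 CPM with IL-3, and 5.98 and 18.7 CPM without it. Gp9, a subunit of the von Willebrand factor receptor, had the order of the globins, with 14.4 and 54.9 CPM against 30.1 and 26.1 CPM.

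An unadjusted p under 0.05 was found for 3 of the 22 platelet genes, all with lower values without IL-3, as for 3.36% of all genes tested. Gp1ba, the ligand-binding chain of the von Willebrand factor receptor, had 36.9 and 46.2 CPM with IL-3, and 10.05 and 12.96 CPM without it. The groups stood 2.85-fold apart at their nearest libraries, and the log2 fold change was -1.85 (95% interval -2.82 to -0.89, adjusted p = 0.726 in edgeR). F2r, the thrombin receptor PAR1, had 703 and 608 CPM with IL-3, and 325 and 291 CPM without it (log2 fold change -1.09, adjusted p = 0.737 in edgeR). P2ry1, an ADP receptor, had 132 and 61.8 CPM with IL-3 and 45.02 and 40.2 CPM without it, and shares 992 exonic bases with an antisense gene. These genes, like Gata1 and Gfi1b, are described by their values, since no difference passed the adjusted test in edgeR. DESeq2 called 271 genes, and its calls are given here for the members only.

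**Figure D5:**
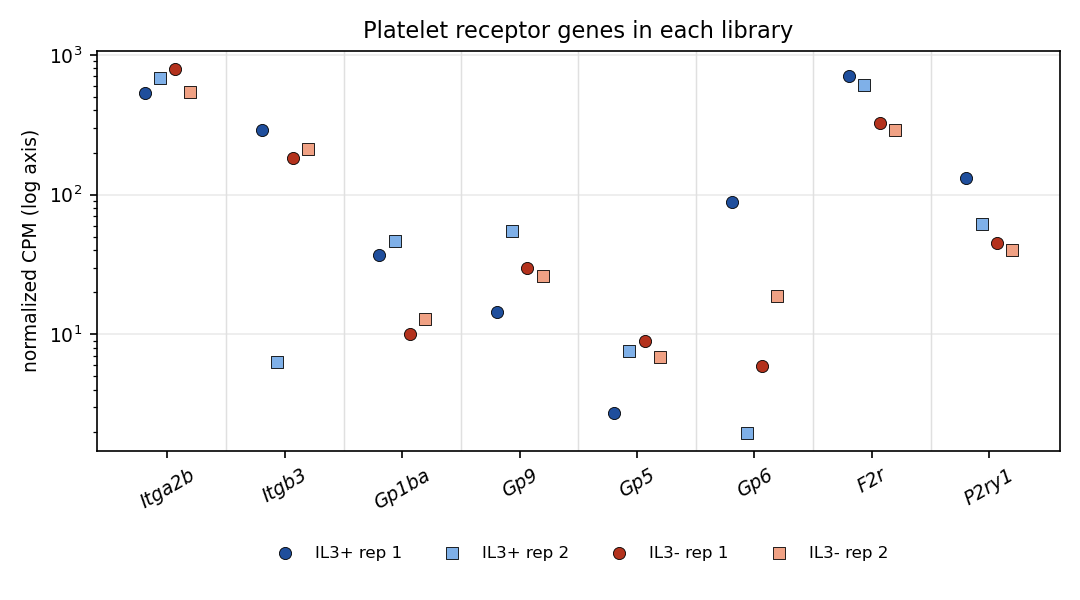
Normalized CPM (log axis) of platelet receptor genes in each library, with colours for the groups and shapes for the replicates. Itga2b stays between 535 and 792 CPM, Itgb3 is low in IL3+ replicate 2 alone, Gp6 has its lowest value there, and for Gp1ba, F2r and P2ry1 both Abl1ko/IL3- libraries lie below both Abl1ko/IL3+ libraries.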

How the data were processed

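RNA-seq of total RNA depleted of ribosomal RNA was deposited for 4 libraries, 2 per group. The authors deposited raw counts per gene, made by aligning reads to GRCm38 with Rsubread and summarizing them with featureCounts, and FPKM values that the authors scaled by gene length and depth with a tool that the study's methods do not name. The submitters' processing notes name STAR, Cuffdiff and mm10, with no role given. Groups and replicate numbers came from the labels. The study calls the replicates biological, and p-values measure the spread between these libraries. A second deposited table held the same counts and was not used.

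Counts were filtered with filterByExpr (16535 genes kept), scaled by TMM and tested with edgeR 4.0.16 in R 4.3.3 (quasi-likelihood F test, two-sided, Benjamini-Hochberg over all genes, threshold 0.05). Normalized CPM divides by the TMM-scaled total of those genes. Standard errors are the size of the log2 fold change over the root of F. With 2 libraries against 2, edgeR estimates the spread from few degrees of freedom. No library was a copy of another: chi-square per degree of freedom between counts was 271 or more for each pair. Steps were tested on simulated data. Alternatives used DESeq2 1.42.0, limma 3.58.1 on log2(FPKM + 1) and log2(FPKM + 0.1), other scaling and filters, the replicate block and leaving out each library. The crossed pairing and summed globin paralogs were added after seeing the data.

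The members and lists were chosen with earlier results of these data known. Named were all members, set partner genes, Abl1, leading and absent markers of other cell types, and from each list up to 3 genes with the lowest unadjusted p under 0.05, since none passed the adjusted threshold. Genes named beyond that rule (Alad, Glrx5, Tfrc, Add2, Rhag, Bpgm, Hba-x, Hbb-y, Gp6, Gp9, S100a8, Vpreb2, Fcer1a and Kit) were chosen after their values were seen. Some genes that the rule names are not reported here. Motifs and promoters came from RefSeq on GRCm38.p6, matched by symbol for all 10 members, and exons and transcripts from GENCODE M21, also GRCm38.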

Additional observations from a re-analysis of the deposited data

How the results depend on the processing

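With 2 libraries per group, and IL3+ replicates that differed widely for the globins, the intervals of Hba-a1 and Hbb-bt span several log2 units, and depth is not the limit except for Alas2 and Pf4. The number of genes called was 0, as in the other fits but these: DESeq2 gave 271 genes (111 higher, 160 lower), and leaving out one library gave 0 to 15, the 15 without IL3- replicate 1. A fit without a library assumes that the lone library varies like the others. The number of members called was 0 in each fit. The median log2 fold change of the members, -0.61, was 0.11 with the replicate block, 0.11 and 0.125 with limma on log2(FPKM + 1) and log2(FPKM + 0.1), and 0.11 with the pairs crossed. It ranged from -0.93 to 0.32 when a library was left out. Of the members' own values under the alternatives, 107 kept their sign and their side of the threshold and 19 turned. Tal1, at 0.004, was -0.019 with library size only and -0.001 without a filter. With the replicate block, limma at either pseudocount and the crossed pairs, Hba-a1 was 1.36, 1.38, 1.38 and 1.36, and Hbb-bt 1.73, 1.21, 1.76 and 1.71. These fits compare means of logs or blocks, where edgeR without a block compares group means of counts. When a library was left out, Klf1 ranged from -1.32 to 0.73, Tal1 from -0.47 to 0.72, Hbb-bt from -1.78 to 5.67, Hba-a1 from -1.45 to 4.38, Pf4 from -0.72 to 2.13 and Itga2b from -0.16 to 0.40. Deviations of same-numbered libraries correlated at -0.211 over genes, so there was no sign of pairing by number. With 2 libraries per group, the crossed pairs must give the opposite value, 0.211, which is no separate check. Pairing other than by number therefore stays unknown. With the block or the crossed pairs 0 genes were called.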

Other observations

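Some mast cell and eosinophil genes, from lineages that also use GATA1, differed widely between the IL3+ replicates. They are given as values, and several were chosen after these were seen. Fcer1a, the alpha chain of the high-affinity IgE receptor of mast cells and basophils, had 194 and 1.29 CPM with IL-3, and 24.5 and 23.8 CPM without it, a difference of 151-fold between the IL3+ replicates. Cpa3, a mast cell carboxypeptidase, had 313 and 25.7 CPM with IL-3, and 42.6 and 46.9 CPM without it. Both were highest in the library where Hba-a1 was lowest, as were Itgb3 and Gp6. Of the 11 mast cell and basophil genes tested, 4 were highest in IL3+ replicate 1 and lowest in IL3+ replicate 2 (13.9% of all genes tested). The order of the globins was found in 2 of the 11 (14.2% of all genes tested). Fcer1g, 1 of these 2, had 168 and 251 CPM with IL-3, and 172 and 229 CPM without it. Prg2, the major basic protein of eosinophil granules, had the order of the globins, with 39.7 and 2063 CPM with IL-3, and 702 and 523 CPM without it. Epx, the eosinophil peroxidase, did not share that order, with 2267 and 1039 CPM with IL-3, and 779 and 417 CPM without it, and neither did Ear6, an eosinophil ribonuclease, with 710 and 262 CPM against 19.7 and 50.3 CPM. The log2 fold change of Epx was -1.47 and that of Ear6 was -3.80, and neither passed the adjusted test (adjusted p = 0.841 and 0.726 in edgeR). Kit, the stem cell factor receptor, had 0 to 4 counts in each library.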
